A study of Mus musculus with 9 samples.

Results

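The 10 genes Vegfa, Slc2a1, Pfkfb3, Egln3, Hk2, Ldha, Pdk1, Adm, Ankrd37 and Bnip3 are known targets of the hypoxia-inducible factors (HIFs). They were taken by symbol from the 54532 genes of a liver RNA-seq table, and all 10 were found. The table holds 9 libraries from male C57BL/6 mice aged 5 to 7 weeks, 3 per group and 1 mouse per library. In the NC group the mice were normal controls. In the APAP group the mice were fasted overnight, received 500 mg/kg acetaminophen intraperitoneally and were sampled after 6 h. In the AMSC group the mice received the same acetaminophen dose and at once 200000 adipose-derived mesenchymal stem cells through the tail vein, and were also sampled 6 h after acetaminophen. The cells came from inguinal fat of C57BL/6 mice. No genotype or allele other than the strain is given for any group, and the study's methods state an overnight fast of all animals ahead of acetaminophen, which leaves unclear whether it covered NC mice. The comparisons ask how acetaminophen injury changed the liver transcriptome and how the transplanted cells changed it further.

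HIFs are pairs of an oxygen-regulated alpha subunit (Hif1a or Epas1) and a constant partner (Arnt). With enough oxygen, prolyl hydroxylases of the Egln family mark the alpha subunit and the Vhl protein directs it to degradation, and when oxygen falls the subunit accumulates and the pair binds short motifs near its targets. The targets raise glucose uptake and glycolysis, divert pyruvate from mitochondria, promote vessel growth and remove mitochondria. Oxygen falls along the liver lobule from the portal vein to the central vein, the zone where acetaminophen is turned into its toxic product.

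The core of the motif that HIFs bind reads ACGTG or GCGTG. Both cores were searched on both strands in the 250 bases upstream of the RefSeq start of each gene (GRCm38.p6, mouse), and CACGTG, which holds ACGTG on both strands, counts as 2 cores. Vegfa, Pfkfb3, Ldha and Pdk1 have another RefSeq start, and the start nearest to the 5′ end of the deposited gene was used. Of 32851 upstream windows, 38.6% held at least 1 core and 16.6% held ACGTG. Of the windows of the 10 genes, 9 held a core and 7 held ACGTG. Ldha and Bnip3 had 5 cores each, a number reached by 1.01% of all windows. Ankrd37 had 4, Slc2a1, Hk2 and Adm had 2 each, Pfkfb3, Egln3 and Pdk1 had 1 each, and Vegfa had 0. At the other start Ldha had 1 core, Vegfa 2, Pfkfb3 3 and Pdk1 0, so these counts depend on the start chosen. A match is only a description of the letters, and the absence of a match says only that these letters were not in this window. Windows of 6 genes are printed 5′ to 3′ on the gene's strand, with cores in capitals. They are Ldha and Bnip3, the richest in cores and highest in AMSC livers, Slc2a1 and Hk2, highest in APAP livers, Egln3, the only one that fell, and Vegfa, without a core in the window used. The Slc2a1 and Bnip3 windows are cut short near the start of the deposited gene.
Slc2a1 (chr4:119108495-119108713, + strand): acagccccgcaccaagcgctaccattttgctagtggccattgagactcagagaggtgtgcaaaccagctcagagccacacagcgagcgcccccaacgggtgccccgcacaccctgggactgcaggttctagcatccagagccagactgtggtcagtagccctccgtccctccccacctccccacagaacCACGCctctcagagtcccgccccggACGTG
Hk2 (chr6:82774455-82774704, - strand): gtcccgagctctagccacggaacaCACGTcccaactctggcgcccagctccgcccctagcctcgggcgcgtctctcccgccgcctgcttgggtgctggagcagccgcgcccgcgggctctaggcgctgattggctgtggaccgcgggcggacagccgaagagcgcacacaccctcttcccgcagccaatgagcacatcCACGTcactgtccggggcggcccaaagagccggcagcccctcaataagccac
Ldha (chr7:46845554-46845803, + strand): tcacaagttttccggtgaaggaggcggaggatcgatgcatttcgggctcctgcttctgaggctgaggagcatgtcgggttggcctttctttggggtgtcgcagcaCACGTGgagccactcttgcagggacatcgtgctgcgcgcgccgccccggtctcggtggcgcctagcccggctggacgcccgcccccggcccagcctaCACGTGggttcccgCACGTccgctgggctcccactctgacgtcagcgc
Bnip3 (chr7:138909520-138909756, - strand): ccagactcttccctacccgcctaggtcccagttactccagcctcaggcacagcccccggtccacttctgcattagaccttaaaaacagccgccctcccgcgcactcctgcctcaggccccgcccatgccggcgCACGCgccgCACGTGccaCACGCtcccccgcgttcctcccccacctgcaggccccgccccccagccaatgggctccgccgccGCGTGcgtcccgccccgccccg
Egln3 (chr12:54203875-54204124, - strand): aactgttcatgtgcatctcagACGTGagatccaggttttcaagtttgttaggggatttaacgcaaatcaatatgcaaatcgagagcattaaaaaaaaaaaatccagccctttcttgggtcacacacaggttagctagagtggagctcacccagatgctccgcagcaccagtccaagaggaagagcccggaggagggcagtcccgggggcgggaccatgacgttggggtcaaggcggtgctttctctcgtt
Vegfa (chr17:46032378-46032627, - strand): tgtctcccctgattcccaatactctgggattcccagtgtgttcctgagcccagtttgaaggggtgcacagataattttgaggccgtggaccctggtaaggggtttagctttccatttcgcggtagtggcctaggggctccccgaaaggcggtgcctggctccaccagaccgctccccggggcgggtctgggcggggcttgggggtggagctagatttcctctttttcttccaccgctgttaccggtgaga
The Ldha window ends at a RefSeq start that lies 4329 bases inside the deposited gene, and the Ankrd37 window at one that lies 5857 bases inside it.

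Reads assigned to genes ran from 13418921 to 16210930 a library. Levels are given as FPKM, fragments per kilobase of gene length divided by a factor for each library, a unit that can be compared between genes. These factors followed size factors from the median of ratios and not library totals. Relative to the totals they were 1.08 to 1.16 in NC, 0.909 to 0.949 in APAP and 0.969 to 0.985 in AMSC. One read on a gene of 1 kb stood for 0.0578 to 0.0807 FPKM. All 10 hepatocyte markers passed the filter on low values, with a summed level of 44124 to 47370 FPKM in NC, 59038 to 68140 in APAP and 54453 to 57266 in AMSC. Most of this sum was Alb, at a mean of 28741 FPKM in NC, 44835 in APAP and 33180 in AMSC. Of the 10 markers 2 rose (Alb and Apoa1) and 1 fell in APAP against NC, where 12.8% of all tested genes rose and 13.1% fell. In AMSC against APAP 1 of them rose, against 1.64% of all tested genes. Cyp2e1, the enzyme that turns acetaminophen into its toxic product, fell by 2.31 in APAP against NC and rose by 2.40 in AMSC against APAP, and the rise was lost without APAP replicate 3 or any single AMSC library (adjusted p up to 0.147). Correlations between libraries of a group ran from 0.970 to 0.991, and APAP replicate 1 correlated at 0.970 and 0.972 with the other APAP libraries, which correlated at 0.981 with each other. NC replicate 3 carries a date in its label that differs from those of the other NC libraries. Genes were tested on log2(FPKM + 1) with limma where their mean was at least 1 FPKM, which left 9699 genes and 8 of the 10 targets. Fold changes are on this log2 scale, which understates changes of low genes, and adjusted p is Benjamini-Hochberg over all genes tested. "Rose" and "fell" mean that the adjusted p did not exceed 0.05, and a differentially expressed gene (DEG) in addition moved by 1 or more on the log2 scale. In whole liver, fewer cells of a type and less RNA per cell cannot be told apart.

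The 10 targets ran from low to very high in NC livers. Ldha, the lactate dehydrogenase subunit that favours lactate formation, was highest at 184 ± 9.34 FPKM (mean ± SD, n = 3), followed by Bnip3, a mitochondrial receptor for mitophagy, at 74.6 ± 13.4 FPKM. Vegfa, the endothelial growth factor, lay at 21.8 ± 3.04 FPKM. Pdk1, a kinase that turns pyruvate dehydrogenase off, was at 7.60 ± 0.186 FPKM and Egln3, an oxygen-sensing prolyl hydroxylase, at 7.46 ± 0.646 FPKM, and these neighbours in the order overlapped. Slc2a1, the widespread glucose transporter GLUT1, at 3.70 ± 1.17 FPKM overlapped with Pfkfb3, which makes the activator of phosphofructokinase, at 2.62 ± 0.683 FPKM. Adm, the vasodilator peptide adrenomedullin, was at 0.734 ± 0.193 FPKM. Ankrd37, an ankyrin repeat protein, at 0.242 ± 0.0630 FPKM and the hexokinase Hk2 at 0.179 ± 0.108 FPKM overlapped at the bottom. The group with the highest mean was APAP for 4 genes (Slc2a1, Pfkfb3, Hk2 and Ankrd37), AMSC for 4 (Vegfa, Ldha, Adm and Bnip3) and NC for 2 (Egln3 and Pdk1). The plot of levels by library shows each value.

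**Figure D1:**
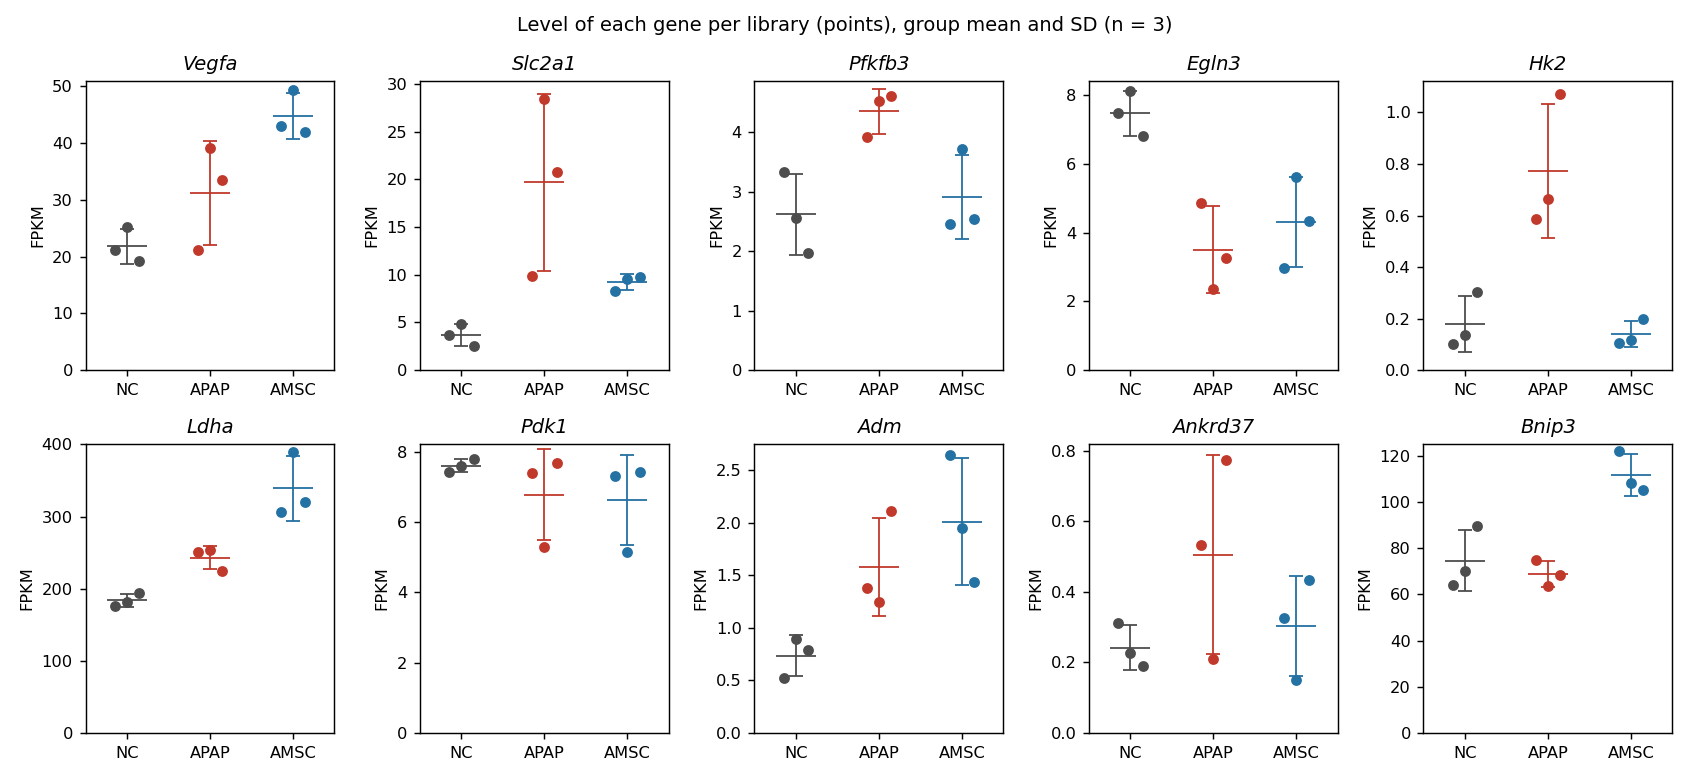
Level in FPKM of the 10 HIF targets in each library (points), by group, with the group mean and SD (n = 3) as bars. Slc2a1 lies at 9.87 FPKM or more in all APAP libraries and at 4.88 or less in NC, Ldha and Bnip3 are highest in the 3 AMSC libraries, and Egln3 is highest in the 3 NC libraries.

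In APAP against NC, 4 of the 8 tested targets rose (Slc2a1, Pfkfb3, Ldha and Adm), Egln3 fell, and Vegfa, Pdk1 and Bnip3 did not pass. Of all 9699 genes, 25.9% passed this test, 12.8% higher and 13.1% lower. The median log2 fold change was 0.43 over the 8 targets and -0.00 over all genes. One target, Slc2a1, was a DEG, against 7.90% of all genes. Adm, at 0.734 FPKM in NC, met the filter only through the acetaminophen groups, while Hk2 and Ankrd37 stayed under it. The filter thus favoured counting Adm as risen, here and in AMSC against NC. The count of 5 targets that passed was 2 without APAP replicate 2, 3 without APAP replicate 3, 3 without NC replicate 1, 1 without NC replicate 2 and 2 without NC replicate 3. With counts scaled to library totals in place of the authors' scaling, the median of all genes moved to -0.22 and 2 targets passed.

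In AMSC against APAP, Bnip3 rose and the other 7 tested targets did not pass. Of all genes, 3.78% passed, 1.64% higher and 2.14% lower. No target was a DEG, against 1.96% of all genes, and 5 of the 8 had an unadjusted p under 0.05, as did 20.9% of all genes. The median log2 fold change was 0.23 over the targets and 0.01 over all genes. In AMSC against NC, 5 of the 8 tested targets rose (Vegfa, Slc2a1, Ldha, Adm and Bnip3), Egln3 fell, and Pfkfb3 and Pdk1 did not pass. Of all genes, 26.0% passed, 14.1% higher and 11.9% lower, and the median was 0.69 over the targets and 0.02 over all genes. Vegfa and Slc2a1 were DEGs, against 6.01% of all genes, and without NC replicate 3 neither reached the fold minimum. APAP and AMSC were each set against the same NC libraries, and the APAP libraries enter both of the first comparisons.

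**Figure D2:**
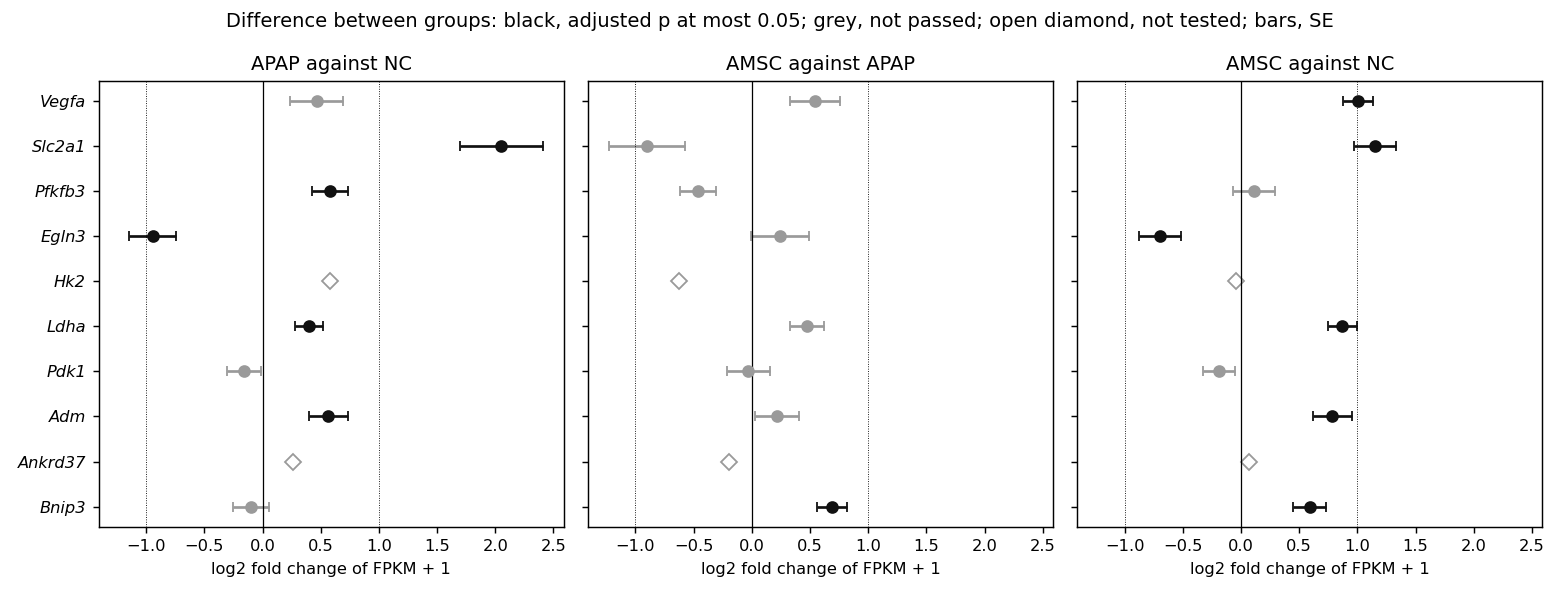
Log2 fold change of FPKM + 1 of the 10 HIF targets in each comparison, from limma, with bars of 1 SE and dotted lines at 1 and -1. Black points passed the adjusted p of 0.05 (5, 1 and 6 of the 8 tested), grey points did not, and open diamonds are the plain differences of Hk2 and Ankrd37, which were under the filter.

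The glucose transporter Slc2a1 (chr4:119108711-119137983, + strand, ENSMUSG00000028645) had the largest change in size on log2(FPKM + 1) of the 8 tested targets in each comparison. It lay at 3.69, 4.88 and 2.54 FPKM in NC replicates 1 to 3, at 9.87, 28.4 and 20.8 FPKM in APAP replicates 1 to 3 and at 8.33, 9.57 and 9.81 FPKM in AMSC replicates 2 to 4. Every acetaminophen-treated liver was above every NC liver, and APAP replicate 1 sat at the AMSC level. Slc2a1 rose by 2.05 (log2, SE 0.36, adjusted p = 0.00608) in APAP and by 1.15 (SE 0.18, adjusted p = 0.00311) in AMSC. AMSC against APAP differed by -0.90 (SE 0.33, adjusted p = 0.173), and without APAP replicate 1 by -1.31 with an adjusted p of 0.0107. The rise in APAP passed without each library in turn, and its adjusted p was 0.0584 when all genes above 0 were tested. Non-coding genes overlap Slc2a1 on the opposite strand, at up to 3.0 FPKM, and whether the authors' counting used strand is not given in the sources used here.

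Slc2a2, the glucose transporter GLUT2 of hepatocytes, went the other way in the same livers. It fell by 0.54 in APAP (log2, adjusted p = 0.0182) and by 0.84 in AMSC (adjusted p = 0.00117). The fall in APAP did not pass without NC replicate 1, NC replicate 2 or APAP replicate 2, where the adjusted p reached 0.0710. The ratio of Slc2a1 to Slc2a2 was 0.0748 ± 0.0239 in NC, 0.608 ± 0.347 in APAP and 0.341 ± 0.0433 in AMSC (SD, n = 3). Both acetaminophen groups were above NC in all libraries, with an exact two-sided permutation p of 0.1, the smallest that 3 against 3 allows, while APAP and AMSC overlapped.

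Hk2 (chr6:82725025-82774454, - strand, ENSMUSG00000000628), the inducible hexokinase of muscle and proliferating cells, was very low. It lay at 0.10, 0.136 and 0.302 FPKM in NC, 0.587, 0.662 and 1.07 FPKM in APAP and 0.105, 0.116 and 0.201 FPKM in AMSC. These values rest on 10, 14 and 31 reads in NC, 47, 49 and 86 in APAP and 10, 9 and 18 in AMSC. All APAP libraries were above all others, and NC and AMSC overlapped. The mean was 4.32 times as high in APAP as in NC. Hk2 was under the filter of the main test. On recovered read counts, in an alternative chosen after the data were seen, voom gave 2.19 (log2, SE 0.45, adjusted p = 0.00799) in APAP against NC and -2.42 (SE 0.43, adjusted p = 0.0149) in AMSC against APAP. With all genes above 0 tested on log2(FPKM + 1), the adjusted p was 0.0683 and 0.144.

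Markers of other cell types were measured in the same libraries. In APAP against NC, 3 of 3 tested neutrophil markers, 2 of 11 macrophage markers and 4 of 5 erythrocyte markers rose, against 12.8% of all genes. The 3 neutrophil markers (S100a8, S100a9 and Retnlg) averaged 0.308, 0.223 and 0.131 FPKM in NC. They met the filter of 1 FPKM only through the acetaminophen groups, so their count was close to fixed by the filter. Without APAP replicate 2, 7 macrophage markers rose, without NC replicate 3, 4 did, and with any other library left out 1 did. The erythrocyte count was 0 without NC replicate 1 or 2 and 2 without APAP replicate 1 or 3. In AMSC against APAP, 0 of 3, 1 of 11 and 1 of 5 passed in limma, all lower, against 2.14% of all genes. Without APAP replicate 2 the counts were 3, 9 and 4. With APAP replicate 3 or AMSC replicate 2 or 4 left out, 0 passed in each list, and with AMSC replicate 3 left out, 1 macrophage marker did. The summed level of 10 neutrophil markers was 0.491 to 2.09 FPKM in NC, 8.06 to 36.0 in APAP and 4.65 to 6.38 in AMSC, with 2 of the 10 at 0 in all NC libraries and 1 in all APAP libraries. The sum of 11 macrophage markers was 111 to 210, 166 to 413 and 99.0 to 162 FPKM, that of 10 endothelial markers 30.9 to 60.6, 35.8 to 90.7 and 31.2 to 34.0, and that of 11 stromal markers 21.7 to 40.3, 29.3 to 64.0 and 28.4 to 47.6. The 5 erythrocyte markers summed to 135 to 254, 306 to 1406 and 183 to 312 FPKM. The neutrophil sums did not overlap between the groups, and the sums of the macrophage, endothelial and stromal markers overlapped between NC and APAP. The part of these cells in the levels of Hk2, Slc2a1 and the other targets was not tested.

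Pfkfb3 (chr2:11471433-11554077, - strand, ENSMUSG00000026773) lay at 3.33, 2.56 and 1.97 FPKM in NC, 3.92, 4.52 and 4.61 FPKM in APAP and 2.46, 3.72 and 2.54 FPKM in AMSC. APAP was above both other groups in every library. Pfkfb3 rose by 0.58 in APAP against NC (SE 0.16, adjusted p = 0.0316), which did not pass without APAP replicate 2 or 3 or NC replicate 2 or 3 (adjusted p of 0.0740 to 0.101). AMSC differed from APAP by -0.47 (SE 0.15, adjusted p = 0.143) and from NC by 0.11 (adjusted p = 0.680). Its family member Pfkfb1, the enzyme of liver, fell by 1.72 in APAP (adjusted p = 0.00126) and by 1.24 in AMSC (adjusted p = 0.00106). The ratio of Pfkfb3 to Pfkfb1 was 0.353 ± 0.125 in NC, 2.91 ± 1.20 in APAP and 1.08 ± 0.107 in AMSC, and no group overlapped with another (exact two-sided permutation p = 0.1 for each pair).

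Ldha (chr7:46841475-46855627, + strand, ENSMUSG00000063229) was the highest of the 10 in every library. It lay at 176, 182 and 194 FPKM in NC, 250.3, 254 and 224 FPKM in APAP and 307, 390.2 and 320.0 FPKM in AMSC. The groups followed one another without overlap. Ldha rose by 0.40 in APAP against NC (SE 0.12, adjusted p = 0.0455) and by 0.87 in AMSC against NC (SE 0.12, adjusted p = 0.00199). AMSC differed from APAP by 0.47 (SE 0.14, adjusted p = 0.119). The rise in APAP was the least firm. With the replicate number as a block, though no pairing of the mice is given, its adjusted p was 0.0503. In the main fit the rise passed without APAP replicate 3 but not without any other library (0.0662 to 0.178). With quantile normalization it was 0.09 (adjusted p = 0.622), or 0.15 above the median of all genes, and with library totals 0.14 (adjusted p = 0.410), or 0.36 above that median. Reads of Ldha may be shared with processed copies of the gene, so its level is uncertain to that extent.

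Ldhb, the subunit that favours pyruvate formation, rose by 0.58 in APAP (adjusted p = 0.0110, and 0.0517 without NC replicate 1). Ldhb averaged 0.808 FPKM in NC and met the filter of 1 FPKM only through the acetaminophen groups, which favoured counting it as risen. It differed by -0.35 between AMSC and APAP and by 0.23 between AMSC and NC, and neither passed. The ratio of Ldha to Ldhb was 230 ± 28.1 in NC, 143 ± 17.6 in APAP and 305 ± 46.5 in AMSC, without overlap between any groups. The ratio was lowest in APAP, while the level of Ldha itself was lowest in NC.

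Pdk1 (chr2:71873224-71903858, + strand, ENSMUSG00000006494) did not pass in any comparison. It lay at 7.43, 7.59 and 7.80 FPKM in NC, 7.39, 5.29 and 7.67 FPKM in APAP and 7.31, 5.15 and 7.42 FPKM in AMSC. One library of each acetaminophen group was low and the others were near NC. The differences were -0.16 (adjusted p = 0.463), -0.03 (adjusted p = 0.952) and -0.19 (adjusted p = 0.354) in APAP against NC, AMSC against APAP and AMSC against NC. Its family members Pdk2 and Pdk4 moved far more. Pdk2 fell by 0.85 in APAP (adjusted p = 0.00336) and by 0.80 in AMSC (adjusted p = 0.00100). Pdk4, the kinase induced by fasting, rose by 4.96 in APAP (adjusted p = 2.16e-05) and by 3.11 in AMSC (adjusted p = 5.59e-05). It averaged 0.307 FPKM in NC and met the filter of 1 FPKM only through the acetaminophen groups, so the filter favoured counting it as risen. Pdk4 fell by 1.85 in AMSC against APAP (adjusted p = 0.0220), which was lost without AMSC replicate 2 or 3 (up to 0.0748). Pdk1 was 25.8 ± 6.35 times Pdk4 in NC, 0.185 ± 0.0873 times in APAP and 0.685 ± 0.326 times in AMSC. Of the 8 tested genes of pyruvate dehydrogenase control, 1 rose and 3 fell in APAP, 1 fell in AMSC against APAP, and 1 rose and 1 fell in AMSC against NC. In these comparisons 25.9%, 3.78% and 26.0% of all genes passed. The gene that rose was Pdk4. The 3 falls in APAP against NC numbered 1 without NC replicate 1, APAP replicate 2 or APAP replicate 3, and 2 without NC replicate 2 or 3.

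**Figure D3:**
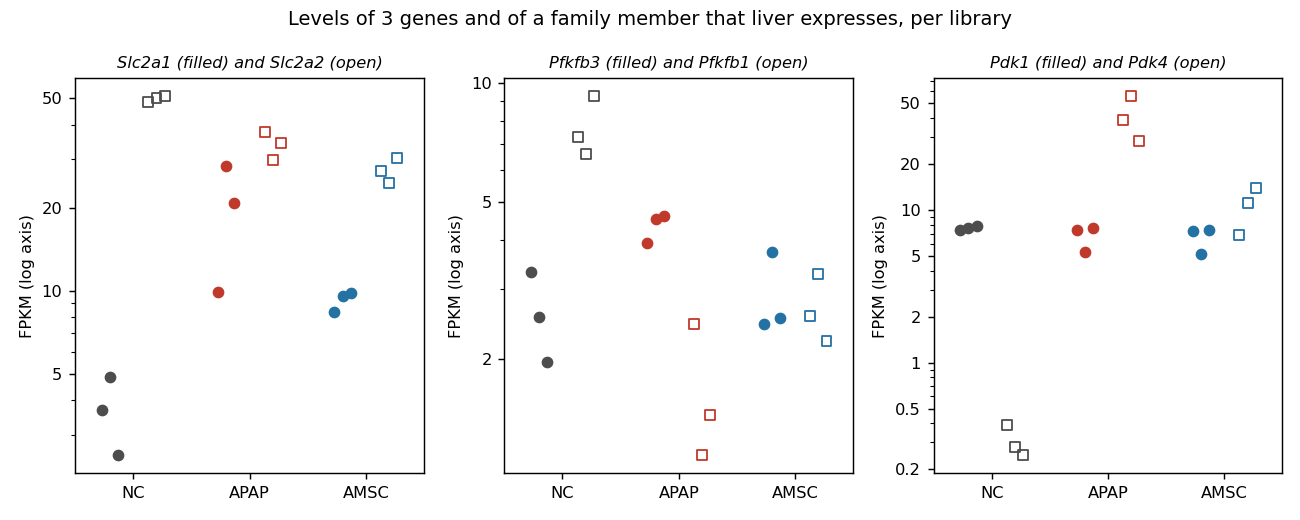
Level in FPKM (log axis) of Slc2a1, Pfkfb3 and Pdk1 (filled circles) and of a family member that liver expresses (open squares) in each library, by group. Slc2a1 comes closer to Slc2a2 in APAP livers, Pfkfb3 is above Pfkfb1 in all of them, and Pdk4 passes Pdk1 in all APAP libraries while Pdk1 stays between 5.15 and 7.80 FPKM.

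Bnip3 (chr7:138890836-138909519, - strand, ENSMUSG00000078566) was the only target that passed between AMSC and APAP. It lay at 64.1, 70.1 and 89.7 FPKM in NC, 74.8, 63.7 and 68.3 FPKM in APAP and 122, 108 and 105 FPKM in AMSC. AMSC livers were above all others, and NC and APAP overlapped. Bnip3 rose by 0.69 in AMSC against APAP (SE 0.13, adjusted p = 0.0343) and by 0.59 against NC (SE 0.14, adjusted p = 0.0195), and differed by -0.10 in APAP against NC (adjusted p = 0.668). The first rise passed without APAP replicate 1 and was lost without any other single library (adjusted p of 0.0808 to 0.110). The second was lost without AMSC replicate 2, NC replicate 1 or NC replicate 2 (0.0667 to 0.0737).

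Vegfa (chr17:46016993-46032369, - strand, ENSMUSG00000023951) lay at 21.1, 25.2 and 19.2 FPKM in NC, 21.2, 39.1 and 33.4 FPKM in APAP and 42.9, 49.4 and 41.9 FPKM in AMSC. AMSC was above both other groups, and APAP replicate 1 sat among the NC libraries. Vegfa rose by 1.01 in AMSC against NC (SE 0.13, adjusted p = 0.00117). It differed by 0.46 in APAP against NC (SE 0.23, adjusted p = 0.170) and by 0.54 in AMSC against APAP (SE 0.22, adjusted p = 0.212). Without APAP replicate 1 it rose by 0.71 in APAP (adjusted p = 0.0153).

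Adm (chr7:110627661-110629820, + strand, ENSMUSG00000030790) lay at 0.518, 0.893 and 0.790 FPKM in NC, 1.38, 1.25 and 2.11 FPKM in APAP and 2.64, 1.95 and 1.44 FPKM in AMSC, on 14 to 68 reads. Every acetaminophen-treated liver was above every NC liver, and APAP and AMSC overlapped. Adm rose by 0.57 in APAP (SE 0.17, adjusted p = 0.0431) and by 0.78 in AMSC against NC (SE 0.17, adjusted p = 0.0116), with 0.22 between AMSC and APAP (adjusted p = 0.579). The rise in APAP was lost without each of its 6 libraries in turn (0.0503 to 0.146). The NC mean of Adm, 0.734 FPKM, was under the filter of 1 FPKM, which Adm met only through the acetaminophen groups. Both rises against NC were thus favoured by the filter. Of the receptors and partners through which Vegfa and Adm act, 7 of 12 were tested. In limma 0 of these 7 passed in any comparison, with 0 at an unadjusted p under 0.05, while 25.9%, 3.78% and 26.0% of all genes passed. The 7 tested include Kdr, the main Vegfa receptor on endothelium, and Calcrl and Ramp2, which form the adrenomedullin receptor, and Flt1 was under the filter.

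Egln3 (chr12:54178981-54203860, - strand, ENSMUSG00000035105), which is both a HIF target and a hydroxylase of HIF, was the only one of the targets that fell. It lay at 7.47, 8.10 and 6.81 FPKM in NC, 4.87, 2.36 and 3.27 FPKM in APAP and 2.98, 5.61 and 4.35 FPKM in AMSC. All acetaminophen-treated livers were below all NC livers. Egln3 fell by 0.95 in APAP (SE 0.20, adjusted p = 0.0128) and by 0.70 in AMSC against NC (SE 0.18, adjusted p = 0.0247), with 0.25 between AMSC and APAP (adjusted p = 0.643). The first fall was lost without NC replicate 2 (0.0538), and the second without AMSC replicate 4, NC replicate 1 or NC replicate 2 (0.0651 to 0.0810).

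Ankrd37 (chr8:45996902-46005707, - strand, ENSMUSG00000050914) rested on 3 to 16 reads in a library. It lay at 0.312, 0.225 and 0.189 FPKM in NC, 0.533, 0.210 and 0.774 FPKM in APAP and 0.327, 0.150 and 0.432 FPKM in AMSC, and the groups overlapped. On log2(FPKM + 1) with all genes above 0 tested, no comparison passed (adjusted p of 0.395, 0.628 and 0.722). It overlaps Ufsp2, a gene of the other strand at 4.96 to 8.81 FPKM, so reads of both may be mixed if strand was not used.

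By library, the group ranges of 6 of the 10 targets did not overlap between APAP and NC, of 6 between AMSC and APAP, and of 7 between AMSC and NC. Among the 8 tested the counts were 5, 5 and 7, against 43.2%, 27.0% and 43.5% of all genes. Across the 9 libraries, which share the 3 groups, the pair of targets with the highest correlation of log2(FPKM + 1) was Vegfa and Ldha (r = 0.844) and the pair with the lowest was Slc2a1 and Egln3 (r = -0.852). Of all tested genes, the pattern of Rbm3 was most like that of Vegfa (r = 0.98) and the pattern of Pxdc1 most like that of Slc2a1 (r = 0.99).

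Of the HIF pathway itself, 7 of 9 genes were tested. In APAP against NC 2 rose and 1 fell, in AMSC against APAP 0 passed in limma (1 had an unadjusted p under 0.05), and in AMSC against NC 3 rose. The shares of all genes that passed were 25.9%, 3.78% and 26.0%. With library totals, 1 rose and 2 fell in APAP against NC, and 3 rose and 2 fell in AMSC against NC. Hif1a, the alpha subunit, lay at 6.16, 5.69 and 5.60 FPKM in NC, 12.9, 19.5 and 14.8 FPKM in APAP and 10.9, 9.20 and 10.5 FPKM in AMSC, so that the 3 groups did not overlap. It rose by 1.28 in APAP (SE 0.16, adjusted p = 0.00163) and by 0.71 in AMSC against NC (adjusted p = 0.00235), and passed without each library in turn, while AMSC against APAP gave -0.57 (adjusted p = 0.112). Epas1, the other alpha subunit, rose by 0.83 in APAP (adjusted p = 0.0271) and by 0.90 in AMSC (adjusted p = 0.00963). Its rise in APAP was lost without NC replicate 1 or 3 or APAP replicate 1 or 2 (up to 0.0891). It was also lost with library totals (0.0714) and with quantile normalization (0.0558). Vhl fell by 0.44 in APAP (adjusted p = 0.0327), which was lost without each library in turn (0.0534 to 0.122). Egln2, a hydroxylase related to Egln3, rose by 0.68 in AMSC against NC (adjusted p = 0.00472), and Arnt, Egln1 and Hif1an, the HIF asparaginyl hydroxylase, did not pass in any comparison of the main fit. With library totals, Egln1 fell by 0.54 in APAP (adjusted p = 0.0152) and by 0.38 in AMSC against NC (adjusted p = 0.0433).

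Of 37 other genes known to rise in hypoxia, 26 were tested. In APAP against NC 13 rose and 0 fell, with 13 or 14 rising and 0 falling without each library in turn, and 13 rising and 3 falling with library totals. In AMSC against APAP 2 rose and 4 fell (2 and 2 without AMSC replicate 3 or 4), and in AMSC against NC 15 rose and 3 fell (13 and 0 without NC replicate 2, and 13 and 1 without NC replicate 1). Among all tested genes, 12.8% rose and 13.1% fell in the first comparison, 1.64% and 2.14% in the second, and 14.1% and 11.9% in the third. The medians were 0.66, -0.24 and 0.61, against -0.00, 0.01 and 0.02 over all genes. Some of the genes that rose, such as Ier3 at 0.588 FPKM in NC, met the filter only through the acetaminophen groups. Hmox1, the haem oxygenase also induced by oxidative stress, rose by 6.85 in APAP and 6.55 in AMSC. Angptl4, an inhibitor of lipoprotein lipase also induced by fasting, rose by 3.41 and 2.77.

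The 6 of these 26 genes that passed in AMSC against APAP are given in turn. Hilpda, a lipid droplet protein, lay at 0.815, 1.21 and 1.47 FPKM in NC, 52.7, 212 and 189 FPKM in APAP and 4.34, 2.93 and 8.63 FPKM in AMSC. It rose by 5.92 in APAP (adjusted p = 0.000250) and fell by 4.47 in AMSC against APAP (adjusted p = 0.00812), which passed without each library in turn. The fall did not pass when all genes above 0 were tested (adjusted p = 0.109). Bhlhe40, a transcriptional repressor, rose by 1.03 in APAP (adjusted p = 0.00464) and fell by 1.72 in AMSC against APAP (adjusted p = 0.00175). Ier3 and Tfrc also fell in AMSC against APAP, and these falls were lost without some single libraries, AMSC replicates 3 and 4 for both genes, AMSC replicate 2 for Ier3 and APAP replicates 1 and 2 for Tfrc (up to 0.111). Ddit4, an inhibitor of mTOR signalling, and Ppp1r3c, a glycogen-targeting subunit of protein phosphatase, rose by 2.43 and 2.20 in AMSC against APAP (adjusted p = 0.00115 for both). The map of these genes by library shows both directions.

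**Figure D4:**
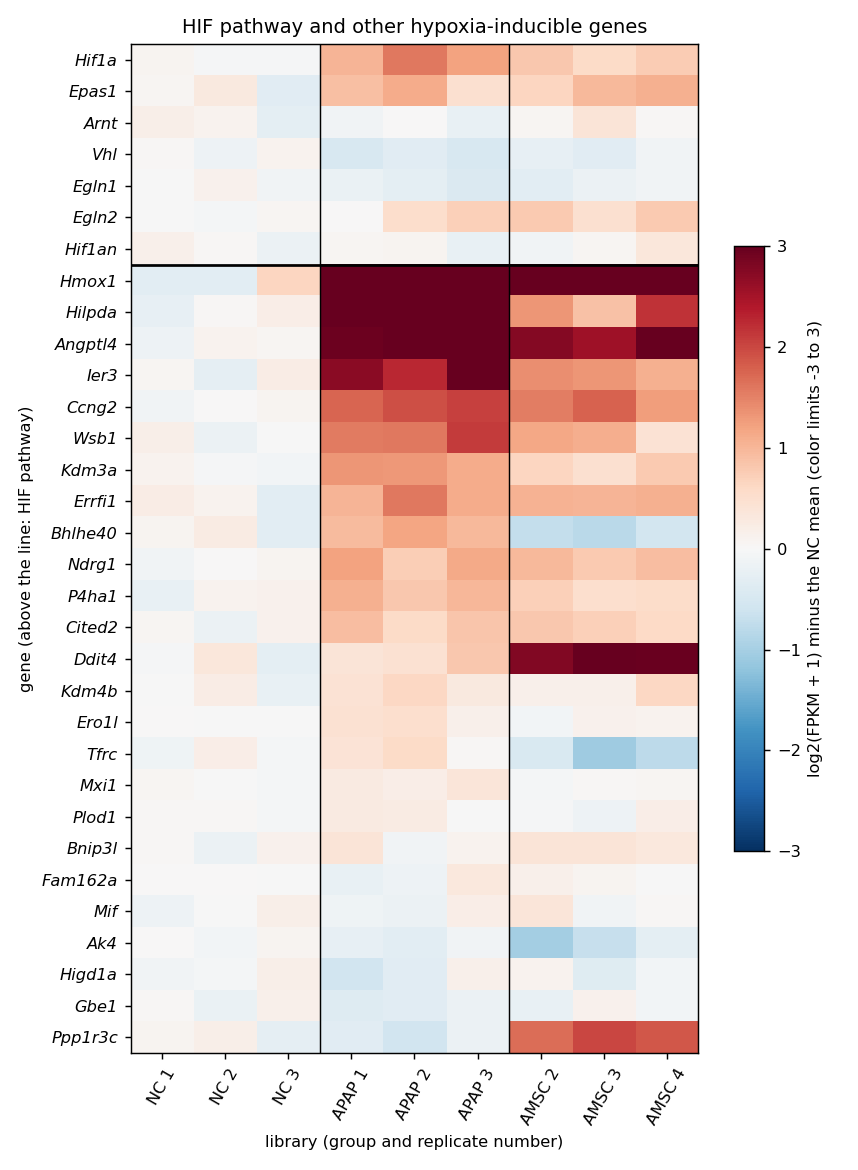
Difference of log2(FPKM + 1) from the NC mean for the 7 tested HIF pathway genes (above the line) and 25 of the 26 tested other hypoxia-inducible genes (below it) in each library, with colors limited to -3 and 3. Hmox1 and Angptl4 are high in both acetaminophen groups, Hilpda and Bhlhe40 are high in APAP and lower in AMSC, and Ddit4 and Ppp1r3c are high in AMSC alone.

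Glycolysis outside the 10 targets was mixed. Of 21 tested genes, 5 rose and 4 fell in APAP against NC, 1 fell in AMSC against APAP, and 2 rose and 4 fell in AMSC against NC. Over all genes, 12.8% rose and 13.1% fell in the first comparison, 2.14% fell in the second, and 14.1% rose and 11.9% fell in the third. Without NC replicate 1 the count of these genes in APAP against NC was 2 and 2, and with library totals it was 3 and 7. Ldhb, counted as risen in APAP, averaged 0.808 FPKM in NC and met the filter only through the acetaminophen groups. Pkm, the pyruvate kinase of most tissues outside liver, rose by 1.22 in APAP (adjusted p = 0.00571), and Pklr, the pyruvate kinase of liver, fell by 1.24 in APAP (adjusted p = 0.00210) and by 1.75 in AMSC (adjusted p = 0.000574). Pkm fell by 0.995 in AMSC against APAP (adjusted p = 0.0373), which passed only without APAP replicate 2 and the adjusted p reached 0.133. Pfkl, the liver phosphofructokinase, did not pass.

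The fast is stated together with the acetaminophen dose, and its reach to NC mice is not clear. Of 13 tested genes of the fasting response, 7 rose and 3 fell in APAP against NC, 0 rose and 3 fell in AMSC against APAP, and 7 rose and 2 fell in AMSC against NC. Higher or lower together, 25.9%, 3.78% and 26.0% of all genes passed. The 3 falls in AMSC against APAP numbered 1 without AMSC replicate 2 or 3, and 2 without AMSC replicate 4, APAP replicate 2 or APAP replicate 3. With all genes above 0 tested they numbered 0. Igfbp1, a binding protein of insulin-like growth factors, rose by 7.98 in APAP, and Fgf21, a fasting hormone, by 3.87. Of the genes that rose in APAP, Fgf21, Pdk4 and Ppargc1a averaged 0.205, 0.307 and 0.545 FPKM in NC. They met the filter of 1 FPKM only through the acetaminophen groups, so the filter favoured counting them as risen. The part of feeding in the differences of the 10 targets from NC was not tested.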

How the data were processed

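Liver RNA of 9 mice was sequenced by the authors, who deposited 1 table of FPKM per gene (GRCm38/mm10, per the labels). The aligner and counter are not given in the sources used here. The table holds no fold changes or p-values, and every column matched a sample. FPKM times gene length over a per-library constant gave whole reads (tolerance 0.1) for 100% of values above 0, and these constants scaled with size factors from the median of ratios. Gene positions matched GENCODE vM21 for 98.3% of the 54409 shared IDs. Of the 54532 genes, 29683 were at 0 in all libraries.

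Each pair of groups was compared with limma 3.58.1 (lmFit, eBayes with trend, R 4.3.3) on log2(FPKM + 1) over the 9699 genes that averaged 1 FPKM or more, with Benjamini-Hochberg adjustment. DEGs needed an adjusted p no higher than 0.05 and a change of 1 or more on the log2 scale. The script was run on simulated data with large changes in a small part of the genes and a fixed spread between libraries. That run does not show how well smaller changes, as in most targets here, are called. Ratios were compared with exact two-sided permutation tests. Same-numbered APAP and NC libraries deviated from their group means weakly together (r of 0.213, 0.160 and 0.378). They come from different mice, and no pairing is given in the sources used here. Libraries of unlike number were not compared, so the replicate block served only as an alternative. For the AMSC libraries these correlations were negative.

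The 10 targets and the gene lists were chosen with earlier results of these data known. Genes named beside them were all HIF pathway genes, liver family members of the targets, receptors of Vegfa and Adm, up to 4 DEGs per list and comparison with the largest fold change, and the gene most correlated with each target that was a DEG. Some of these genes are not reported here, but the counts over the lists include them. The alternatives were other pseudocounts, filters, scalings, the replicate block, voom on recovered reads and leaving out each library. Depth limits Hk2, Adm and Ankrd37, and the 3 mice per group limit all genes.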

Additional observations from a re-analysis of the deposited data

How the results depend on the processing

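In APAP against NC, 766 genes were DEGs, 494 higher and 272 lower. The count was 478 with a mean of at least 5 FPKM, 1197 with voom on recovered reads, 1821 with voom on genes of at least 10 mean reads, and 683 to 872 when 1 library was left out. In AMSC against APAP it was 190 (72 higher, 118 lower), and 21 with all genes above 0, 102 with a mean of at least 5 FPKM, 335 with the replicate block, 296 and 416 with the 2 voom fits, and 90 to 229 with 1 library left out (105 without APAP replicate 3, and 101, 90 and 94 with AMSC replicate 2, 3 or 4 left out). In AMSC against NC it was 583 (380 higher, 203 lower), and 915 with a pseudocount of 0.1, 968 and 1374 with voom, and 555 to 627 with 1 library left out. Scaled to library totals, the splits were 361 higher and 471 lower in APAP against NC and 311 and 341 in AMSC against NC, and the median of all genes moved by more than 0.1, to -0.22 and -0.14. This scaling and voom on genes of at least 10 reads were chosen after seeing the data.

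Targets that were DEGs numbered 1 in APAP against NC, and 3 with a pseudocount of 0.1, 0 with all genes above 0, 2 and 3 with voom, 2 with library totals and 1 to 2 with 1 library left out. In AMSC against APAP they numbered 0, and 1 with the replicate block, 1 with voom on genes of at least 10 reads, and 0 to 1 with 1 library left out. In AMSC against NC they numbered 2, and 1 with quantile normalization, 0 with library totals and 0 to 2 with 1 library left out. Targets that passed the adjusted p numbered 5 in APAP against NC, and 1 with all genes above 0, 2 with a mean of at least 5 FPKM, 3 with quantile normalization, 2 with library totals and 1 to 4 with 1 library left out. In AMSC against APAP they numbered 1, and 0 with all genes above 0, 2 with voom on genes of at least 10 reads and 0 to 2 with 1 library left out. In AMSC against NC they numbered 6, and 3 with all genes above 0 and 4 to 6 with 1 library left out. A filter changes which genes can pass, and for the other settings the cause was not tested.

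Signs turned only for targets that had not passed. Bnip3 in APAP against NC ran from -0.20 to 0.037 with 1 library left out, and was above 0 without NC replicate 3. Pdk1 in AMSC against APAP was 0.026 with library totals and ran from -0.18 to 0.12 with 1 library left out, above 0 without AMSC replicate 3, APAP replicate 1 or APAP replicate 3. Pfkfb3 in AMSC against NC was -0.029 with library totals and ran from -0.031 to 0.25 with 1 library left out, below 0 without AMSC replicate 3 or NC replicate 3. Over single targets, 109 values kept their direction and call with 1 library left out and 27 lost the call, and under the other settings 186 kept both and 21 lost the call, while 2 and 1 gained it. With the block, Ldha in APAP against NC had an adjusted p of 0.0503, and no other call on a target changed there. In the AMSC comparisons the block leaves libraries without a same-numbered partner with no weight. There Slc2a1 passed in AMSC against APAP (-1.35, adjusted p = 0.00455), and the calls on Bnip3 in AMSC against APAP (0.111) and on Egln3 and Bnip3 in AMSC against NC (0.133 and 0.276) were lost. In all comparisons the samples are different mice that share only a number (for AMSC, r of -0.104 and -0.293 with APAP, -0.199 and -0.309 with NC). Depth limits Hk2, Adm and Ankrd37, which rest on 3 to 86 reads in a library, and the mice per group limit the rest.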
